A study of Mus musculus with 6 samples.

Results

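The 9 genes described here, *Actc1*, *Myh6*, *Myh7*, *Tnnt2*, *Tnni1*, *Myl4*, *Myl7*, *Nkx2-5* and *Nppa*, are genes of cardiac muscle, taken by their symbols from the 24421 genes of a count table of mouse embryo heads. Each was found in the table, and 8 of the 9 passed the filter on low counts, which kept 15584 genes in all. The table compares wild-type (WT) heads, labelled SnrpB +/+, with heads of heterozygous mutants, labelled SnrpB+/- and called *Snrpb* ncc+/- in the study, at E9.0. It holds 3 libraries of each genotype, and every library was made from 2 pooled heads of the same genotype and a similar number of somites, taken from different litters. All 6 libraries carry the same strain labels, C57BL/6 and CD1, and no treatment was given. In the mutants, the Wnt1-Cre2 transgene removes an internal part of 1 copy of *Snrpb*, a core protein gene of the spliceosome, in cells of the neural tube and neural crest, while the rest of the head keeps both copies. Whether the WT embryos carried the transgene is not given in the labels.

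Cardiac muscle contracts when myosin, the motor of the thick filament, pulls on actin of the thin filament, and troponin makes this depend on calcium. In the mouse the heart tube forms from mesoderm and is already beating at this stage, lying just beneath the head folds and pharyngeal arches. Its muscle is not a derivative of the neural crest, and the neural crest reaches mainly its outflow region. At this stage the chambers are not yet fully divided in their gene use, and atrial and ventricular isoforms of myosin and its light chains are made side by side.

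The libraries held from 36378803 to 74909774 counted reads. *Snrpb* itself was at 429.9, 438.2 and 414.2 CPM (counts scaled to a common library size) in WT and at 436.5, 412.4 and 430.3 CPM in mutants, so its level did not separate the libraries by genotype. The shortened transcript of the deleted copy can still be counted, which limits this check of the labels. Markers of the head were present in all libraries, with the summed level of 11 head neural markers between 451 and 562 CPM and that of 10 neural crest markers between 303 and 368 CPM. WT replicate 1 stood apart from the other 5 libraries. It held the highest summed level of head neural markers, of primitive erythroid genes (1494 CPM, against 880 to 1215 CPM) and of liver bud and visceral endoderm genes (28.3 CPM, against 7.39 to 8.29 CPM). Values without this library are given beside the spreads of the cardiac genes and the folds of their sum. Log2 fold changes of single genes are from all libraries unless stated, and their range without this library is given with the tests.

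All 9 genes were lowest in WT replicate 1 and highest in mutant replicate 3. Their summed level was 14.3, 97.5 and 74.2 CPM in WT replicates 1, 2 and 3 and 43.5, 94.0 and 160.3 CPM in mutant replicates 1, 2 and 3. The groups overlapped, and the differences among libraries of the same genotype, 6.80-fold in WT and 3.68-fold in mutants, were larger than the 1.60-fold difference between the group means (mutants 99.3 ± 58.6 CPM and WT 62.0 ± 42.9 CPM, *n* = 3 each, ± SD). The WT spread rests on WT replicate 1: without it, WT differed 1.31-fold, the group means 1.16-fold, and the highest library was 3.68-fold above the lowest in place of 11.2-fold. Among those 5 libraries, 7 of the 9 genes were lowest in mutant replicate 1. For comparison, 24.6% of all tested genes were lowest in WT replicate 1 and 12.3% were highest in mutant replicate 3, and the median tested gene differed 1.23-fold between its highest and lowest library. The 9 genes together took 522, 5724 and 2747 reads in WT and 1838, 7145 and 10655 reads in mutants, between 0.00143% and 0.0160% of each library. In pooled heads, fewer cardiac muscle cells and less RNA per cell cannot be told apart. How much heart tissue was kept with each head is not recorded in the labels, and its part in these levels was not tested.

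**Figure D1:**
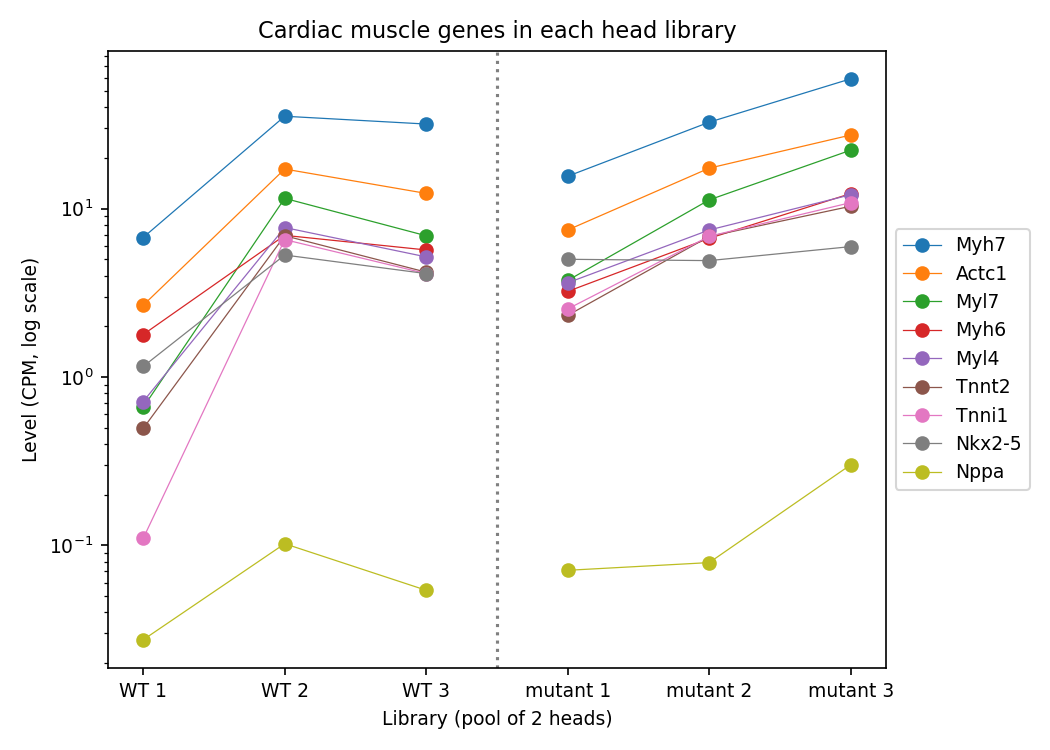
Level of each of the 9 cardiac muscle genes (CPM, log scale) in the 3 WT and 3 mutant libraries, each a pool of 2 heads; lines only help to follow a gene within a genotype. Every gene is lowest in WT 1 and highest in mutant 3, *Myh7* runs from 6.73 to 59.0 CPM, and *Nkx2-5* is nearly level across the mutants.

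The stretch of 250 bases before the annotated start site is shown for 4 of the genes, so that the upstream sequences of genes from the contractile apparatus and of *Nppa* can be compared. All 9 genes matched the RefSeq table for GRCm38.p6, with 12 windows in all, and the 4 shown are those that overlap no exon of the Gencode M21 annotation. Each is given on the coding strand of its gene, 5′ to 3′, and capitals mark the motifs searched on both strands, none of which overlap each other in these windows. *Tnnt2* lies on the + strand (window chr1:135836084-135836333), *Nppa* on the + strand (chr4:148000472-148000721), *Myl7* on the − strand (chr11:5898783-5899032) and *Myh7* on the − strand (chr14:54994627-54994876).
Tnnt2: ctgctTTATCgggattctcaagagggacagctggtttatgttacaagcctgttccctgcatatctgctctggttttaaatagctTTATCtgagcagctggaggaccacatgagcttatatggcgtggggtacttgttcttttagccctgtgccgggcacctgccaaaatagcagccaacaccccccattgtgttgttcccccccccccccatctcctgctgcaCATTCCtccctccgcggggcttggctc
Nppa: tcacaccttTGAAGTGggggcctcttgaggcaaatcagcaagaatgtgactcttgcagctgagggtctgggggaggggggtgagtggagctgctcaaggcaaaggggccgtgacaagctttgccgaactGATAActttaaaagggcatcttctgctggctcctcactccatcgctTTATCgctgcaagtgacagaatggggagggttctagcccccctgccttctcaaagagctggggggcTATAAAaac
Myl7: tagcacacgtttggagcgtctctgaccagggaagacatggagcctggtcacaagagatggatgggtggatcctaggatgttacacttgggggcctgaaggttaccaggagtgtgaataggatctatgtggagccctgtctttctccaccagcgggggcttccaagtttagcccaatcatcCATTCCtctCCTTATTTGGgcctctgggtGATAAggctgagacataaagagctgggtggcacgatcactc
Myh7: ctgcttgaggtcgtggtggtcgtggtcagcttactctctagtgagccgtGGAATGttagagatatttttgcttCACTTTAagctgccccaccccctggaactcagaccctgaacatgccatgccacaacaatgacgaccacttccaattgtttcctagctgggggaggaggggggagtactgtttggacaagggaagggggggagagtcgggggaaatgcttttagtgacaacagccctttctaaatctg

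In *Myl7* the window holds a CArG box, the motif of serum response factor, beginning 61 bases before the start. An MCAT motif (CATTCC, read by TEAD factors) begins 70 bases before it, and a GATAA motif, the core read by GATA factors, 41 bases before it. *Tnnt2* holds 2 GATAA motifs, 245 and 166 bases before the start, and an MCAT motif at 27. *Nppa* holds 2 GATAA motifs, at 121 and 75, an NKE motif (TNAAGTG, the element read by NKX2-5) at 241 and the letters TATAAA at 9. *Myh7* holds an MCAT motif at 201 and an NKE motif at 177. The windows not shown added a CArG box in *Actc1* and an MCAT motif in *Myh6*. A window of this length held a CArG box in 1.47% of 32851 windows of all genes, GATAA in 22.6%, NKE in 10.1%, MCAT in 12.6% and TATAAA in 12.4%. A MEF2 box, present in 2.92% of all windows, was in none of the 12. These matches describe letters only, and no binding was measured here.

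*Myh7* and *Myh6* encode the β and α cardiac myosin heavy chains of the thick filament. *Myh7* (chr14:54970684-54994626, mm10) was at 6.73, 35.3 and 31.8 CPM in WT and at 15.6, 32.6 and 59.0 CPM in mutants. *Myh6*, its neighbour on the same strand (chr14:54941921-54966927), was at 1.79, 6.93 and 5.68 CPM in WT and at 3.22, 6.66 and 12.3 CPM in mutants. In both genes the groups overlapped, with WT replicate 1 low, mutant replicate 1 the next lowest and mutant replicate 3 high. The log2 fold change of mutant over WT was 0.53 for *Myh7* (95% interval −1.58 to 2.64, standard error 0.79, edgeR's quasi-likelihood test, adjusted *P* = 0.888) and 0.62 for *Myh6* (interval −1.15 to 2.38, standard error 0.68, edgeR, adjusted *P* = 0.853). Without mutant replicate 3, the value for *Myh7* was −0.03. The ratio of *Myh7* to *Myh6* counts was 3.77, 5.10 and 5.60 in WT and 4.83, 4.90 and 4.80 in mutants, so it moved far less than either gene. The heavy chains share sequence: 11.2% of the windows of 100 bases in the *Myh7* transcript and 11.4% of those in the *Myh6* transcript also occur in the other, and reads of such stretches may be split between them. Antisense transcripts also overlap exons of both genes, *Mhrt*, *Gm29015* and *Gm31251* in *Myh7* and *Gm49130* in *Myh6*.

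Among the thin-filament genes, *Actc1* encodes cardiac α-actin and lies on chr2:114047282-114053548. Its level was 2.66, 17.2 and 12.3 CPM in WT and 7.46, 17.4 and 27.3 CPM in mutants, with a log2 fold change of 0.69 (interval −1.39 to 2.77, standard error 0.79, edgeR, adjusted *P* = 0.856). *Actc1* kept a nearly fixed part of the summed level, from 16.6% to 18.6% in the 6 libraries. *Tnnt2*, which encodes cardiac troponin T, the subunit that anchors troponin to tropomyosin, was at 0.494, 6.90 and 4.19 CPM in WT and at 2.32, 6.83 and 10.3 CPM in mutants. Its log2 fold change was 0.73 (interval −1.73 to 3.18, standard error 0.94, edgeR, adjusted *P* = 0.871). In both genes the groups overlapped, and WT replicate 2 and mutant replicate 2 lay close to each other.

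*Tnni1* encodes slow skeletal troponin I, the inhibitory troponin subunit that the embryonic heart uses before the cardiac isoform takes over. It lies close to *Tnnt2* on chromosome 1 (chr1:135779434-135810989 and chr1:135836354-135852260, both on the + strand). *Tnni1* had the widest spread of the 9, with 0.110, 6.54 and 4.11 CPM in WT and 2.53, 6.84 and 10.8 CPM in mutants. In WT replicate 1 it had 4 reads, which allow 0.0299 to 0.281 CPM (95% exact Poisson interval, counting error only), against 107 to 721 reads in the other libraries. The highest library was 98.7-fold above the lowest, and 4.28-fold without WT replicate 1. Its part of the summed level was 0.766% in WT replicate 1 and between 5.53% and 7.28% in the others, so it was further below its level in the other libraries than the summed level was. The log2 fold change between genotypes was 0.88 (interval −1.96 to 3.72, standard error 1.08, edgeR, adjusted *P* = 0.864).

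*Myl7* and *Myl4* encode the atrial regulatory and the atrial (embryonic) essential light chains of myosin, both used throughout the early heart tube. *Myl7* (chr11:5896637-5898782) was at 0.659, 11.5 and 6.89 CPM in WT and at 3.74, 11.3 and 22.2 CPM in mutants. *Myl4* (chr11:104550663-104595753) was at 0.714, 7.71 and 5.16 CPM in WT and at 3.62, 7.46 and 12.1 CPM in mutants. Again the groups overlapped, with the same library lowest and the same library highest. The log2 fold changes were 0.94 for *Myl7* (interval −1.82 to 3.70, standard error 1.05, edgeR, adjusted *P* = 0.853) and 0.75 for *Myl4* (interval −1.46 to 2.96, standard error 0.85, edgeR, adjusted *P* = 0.855). Unlike the heavy chain ratio, the ratio of *Myl7* to *Myl4* counts differed between libraries along with the summed level, at 0.923, 1.49 and 1.34 in WT and 1.03, 1.51 and 1.84 in mutants. In WT replicate 1 it rests on 24 and 26 reads. The ratio was lowest where the summed level was lowest and highest where that was highest. A transcript on the opposite strand, *Gm22000*, overlaps exons of *Myl4*.

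*Nkx2-5* encodes the homeodomain transcription factor found in cardiac progenitors and in heart muscle, and also in parts of the pharynx. It lies on chr17:26838664-26845009. Its level was 1.15, 5.30 and 4.11 CPM in WT and 5.00, 4.91 and 5.94 CPM in mutants. The mutant libraries were within 1.21-fold of each other, where the other 7 tested genes differed 3.33-fold to 5.94-fold, while in WT the range was 4.59-fold, or 1.29-fold without WT replicate 1. The groups overlapped, since WT replicate 2 was above mutant replicates 1 and 2. Its log2 fold change was 0.56 (interval −0.66 to 1.78, standard error 0.49, edgeR, adjusted *P* = 0.800), the narrowest interval of the 8. *Nkx2-5* made up 11.5% of the summed level in mutant replicate 1 and 3.71% in mutant replicate 3, so it did not follow the contractile genes among the mutants.

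*Nppa*, on chr4:148000722-148002079, encodes atrial natriuretic factor, a hormone precursor made by working muscle of the chambers. It was near the limit of detection, with 1, 6 and 2 reads in WT and 3, 6 and 20 reads in mutants. Mutant replicate 3 was again the highest and WT replicate 1 the lowest, but the exact Poisson intervals of WT replicate 1 (0.000695 to 0.153 CPM) and WT replicate 2 (0.0375 to 0.222 CPM) overlap. The gene did not pass the filter and was not tested in the main fit. An antisense gene, *Gm13054*, overlaps its exons.

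No cardiac muscle gene passed the test of genotype. Of the 8 tested, 0 had an adjusted *P* under 0.05 with edgeR, against 0.00642% of all tested genes (1 gene), and 0 were at an unadjusted *P* under 0.05, against 8.43%. With DESeq2 the count was also 0, where 0.651% of the genes given an adjusted *P* were called. In 0 of the 9 did every mutant library lie above every WT library, an arrangement found in 8.32% of tested genes, and 6.92% had the reverse order. The log2 fold changes were above 0 in 8 of 8, with a median of 0.71, beside a median of 0.000405 over all tested genes. Because the 8 genes moved together across libraries, their shared sign is not 8 separate observations. Without WT replicate 1 the 8 values ran from 0.10 (*Myh7*) to 0.43 (*Myl7*), with a median of 0.24. The median was 0.23 without mutant replicate 3. All 8 intervals included 0. Their upper bounds ran from 1.78 (*Nkx2-5*) to 3.72 (*Tnni1*) and their lower bounds from −1.96 (*Tnni1*) to −0.66 (*Nkx2-5*). With 3 libraries a group, differences between the genotypes that lie within a gene's interval are therefore not excluded.

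**Figure D2:**
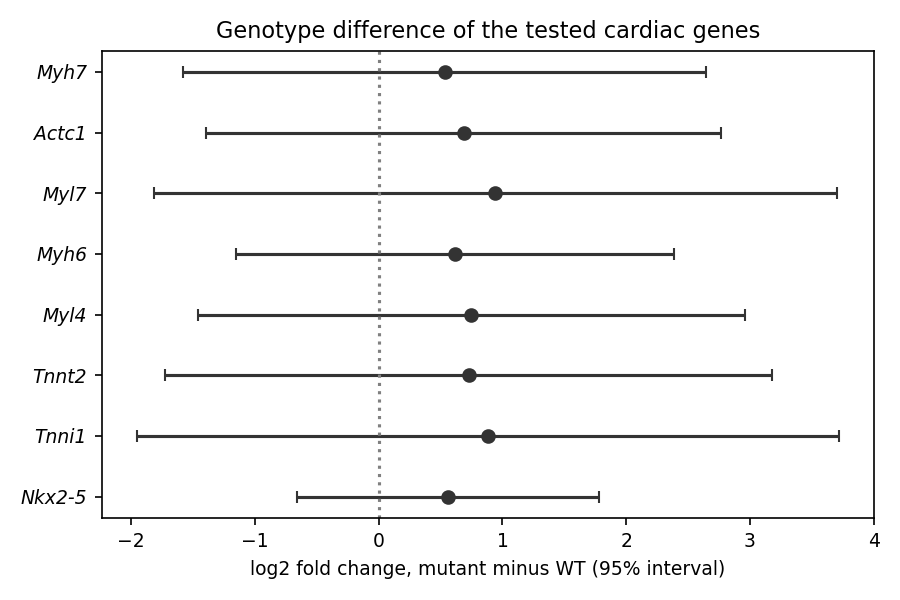
Log2 fold change of mutant over WT for the 8 tested cardiac muscle genes, from edgeR with 3 libraries a group; points are estimates and bars are 95% intervals. All 8 estimates lie between 0.53 and 0.94, and every bar crosses 0.

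These genes spread widely within a genotype. The SD of log2 CPM among libraries of the same genotype was 0.83 for *Nkx2-5*, 1.00 for *Myh6*, 1.16 for *Myh7*, 1.21 for *Actc1*, 1.41 for *Myl4*, 1.59 for *Tnnt2*, 1.78 for *Myl7* and 2.24 for *Tnni1*. The median over all tested genes was 0.11, and the 8 genes lay between the 98.8th and the 99.9th percentile. A wide spread was not limited to them: the median over 22 other tested sarcomere and contractile genes of heart muscle, described below, was 0.93. Only 184 of the 15584 tested genes had a spread at or above that of *Nkx2-5*. *Myh7* had 245 reads even in its lowest library, and *Actc1* had 97. Without WT replicate 1, a comparison added after the data were seen, the SD was 0.19 for *Nkx2-5*, at the 76.9th percentile, so its place among the most variable genes rests on that library. The other 7 genes were then at 0.75 (*Myl4*) to 1.10 (*Myl7*), between the 98.9th and the 99.6th percentile, with *Tnni1* at 0.91, beside a median of 0.09 over all tested genes.

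**Figure D3:**
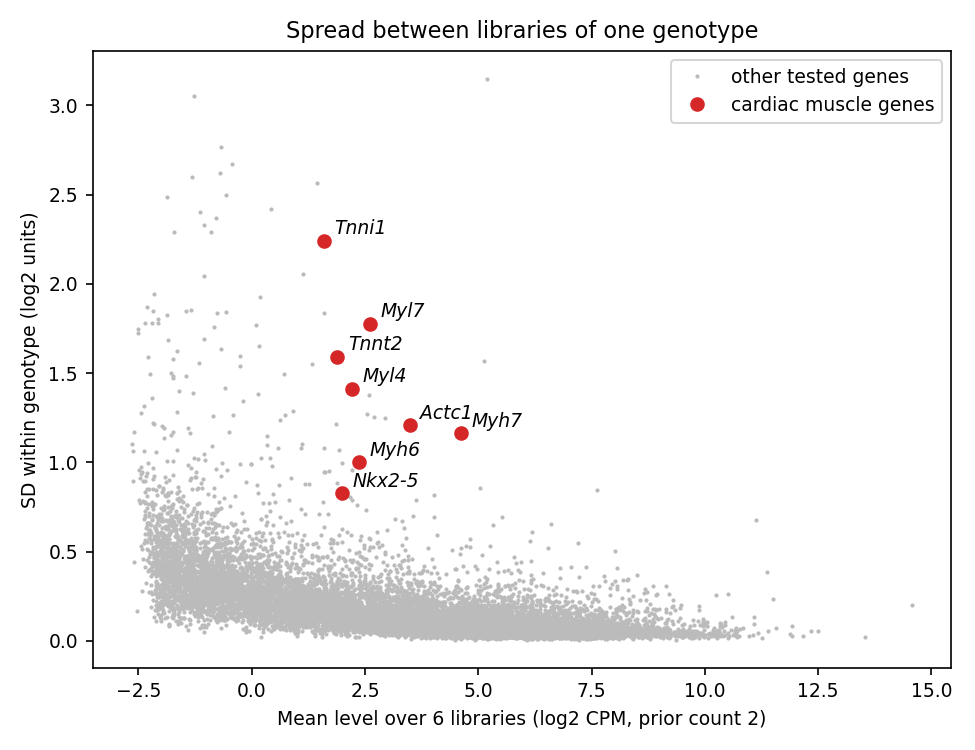
SD of log2 CPM within genotype (vertical) against the mean log2 CPM over the 6 libraries (horizontal) for all tested genes, with the 8 tested cardiac muscle genes in red. The red points lie at 0.83 to 2.24, above nearly all genes of similar level, with WT replicate 1 included.

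The tested genes varied across libraries almost in step. Over the 6 libraries, the Pearson *r* of log2 CPM for the 28 pairs of genes had a median of 0.980, and the range was 0.823 to 0.999. These values describe 6 libraries that share depth and dissection, and WT replicate 1 weighs heavily in them. *Actc1* and *Myl7* were the closest pair (*r* = 0.999), and *Myh6* and *Nkx2-5* the least close (*r* = 0.823). Over the 5 libraries without WT replicate 1, the 7 contractile genes stayed at *r* of 0.948 or above with each other, while *Nkx2-5* was at 0.443 to 0.656 with them.

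Levels can be compared between genes only per length, here in CPM per kilobase of the longest protein-coding transcript. On this scale the mean WT level was 10.8 ± 9.22 for *Myl7*, 7.27 ± 5.01 for *Actc1*, 4.80 ± 3.76 for *Myl4*, 3.95 ± 2.50 for *Myh7*, 3.22 ± 2.68 for *Tnnt2*, 3.12 ± 2.82 for *Tnni1*, 2.31 ± 1.40 for *Nkx2-5*, 0.785 ± 0.439 for *Myh6* and 0.0708 ± 0.0438 for *Nppa* (SD, *n* = 3). The SDs of neighbours in this order overlapped, apart from *Myh6* and *Nppa*. Within each of the 6 libraries *Actc1* was above *Myl4*, *Nkx2-5* above *Myh6* and *Myh6* above *Nppa*. In mutants the means were 21.0 ± 15.7 for *Myl7*, 11.8 ± 6.75 for *Actc1* and 8.19 ± 4.49 for *Myl4* (SD, *n* = 3), again the highest of the 9. The middle of the order depends on the length used. With all annotated exons merged, the mean WT level of *Tnnt2* was 0.498, that of *Myl4* 0.977 and that of *Tnni1* 0.996, all below *Nkx2-5* at 2.05, while *Myl7* and *Actc1* stayed highest.

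The genes whose profile was most like the mean profile of the 8 tested cardiac genes were sought among 89 other genes with a mean of at least 1 CPM and a comparable spread. The 10 closest were *Myocd*, *Mylk3*, *Wnt11*, *Sphkap*, *Smyd1*, *Gata5*, *Alpk3*, *Unc45b*, *Ttn* and *Gata4*, with *r* from 0.972 to 0.995 over the 6 libraries. *Myocd* encodes myocardin, a partner of serum response factor, *Mylk3* the cardiac myosin light chain kinase, *Smyd1* a muscle methyltransferase, *Unc45b* a chaperone of myosin and *Ttn* the giant spring protein titin. Of the 10, 6 stood in the other lists of heart muscle genes and cardiac transcription factors, as did 13.5% of the 89. Those lists were written with earlier results of these data known, so the count is a description and not separate support. All 10 were lowest in WT replicate 1, which weighs heavily in these values of *r*. *Ttn* was at 5.71, 48.4 and 44.1 CPM in WT and at 19.6, 57.7 and 130.5 CPM in mutants. The libraries came in the same order as for *Actc1*, and the log2 fold change was 1.07 (edgeR, standard error 1.06, adjusted *P* = 0.833).

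Other heart genes were counted in lists chosen with earlier results of these data known. Of 25 further sarcomere and contractile genes, 22 were tested and 22 had a log2 fold change above 0, with a median of 0.51. Their *r* with the mean profile of the tested cardiac genes had a median of 0.912, from −0.33 (*Tnni3*) to 0.995 (*Myocd*). Their shared sign is therefore not 22 separate observations. None passed an adjusted *P* of 0.05 with edgeR or DESeq2, and 1 of the 22, *Des*, was higher at an unadjusted *P* under 0.05, against 8.43% of all tested genes. In this list 15 genes were lowest in WT replicate 1 and 16 were highest in mutant replicate 3. Some members were nearly level across libraries. *Tpm1*, a tropomyosin of many cell types, was between 258 and 340 CPM and made up 57.0% to 86.4% of the summed level of the list, and *Nebl* between 10.8 and 12.8 CPM. Without *Tpm1* the sum was 40.7, 124 and 108 CPM in WT and 72.9, 136 and 231 CPM in mutants, again lowest in WT replicate 1 and highest in mutant replicate 3. *Ldb3*, a protein of the Z-disc, was at 0.275, 0.954 and 0.784 CPM in WT and at 0.639, 1.51 and 2.20 CPM in mutants, with a log2 fold change of 1.09 (edgeR, standard error 0.54, adjusted *P* = 0.643).

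Of 16 genes of calcium handling and excitation, 13 were tested, 9 had a log2 fold change above 0 and the median was 0.10, with 6 lowest in WT replicate 1 and 6 highest in mutant replicate 3. The summed level lay between 449 and 493 CPM, but *Atp2a2*, the calcium pump of the reticulum in many cell types, made up 87.8% to 91.7% of it. Without *Atp2a2* the sum was 40.8, 46.5 and 49.5 CPM in WT and 40.7, 49.1 and 58.7 CPM in mutants. *Ryr2*, the calcium release channel, was at 2.58, 3.75 and 3.73 CPM in WT and at 2.53, 4.25 and 7.55 CPM in mutants. Among 13 cardiac transcription factors, all tested, 12 were above 0 with a median of 0.20, and 11 were lowest in WT replicate 1. *Gata5* ranged from 0.467 CPM in WT replicate 1 to 4.78 CPM in mutant replicate 3, whereas *Irx4* was between 4.20 and 5.51 CPM and *Hand1* had a log2 fold change of −0.34 (edgeR, standard error 0.29, adjusted *P* = 0.777). None of these genes passed the threshold with edgeR or DESeq2. At an unadjusted *P* under 0.05 there was 1 of 13 tested genes in each list, against 8.43% of all tested genes. These were *Atp2a2*, lower in mutants, and *Tbx2*, higher in mutants.

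Lists named after neighbouring tissues were summed in each library beside the 9 cardiac genes. Which cells made these transcripts, heart muscle included, was not measured. Second heart field and pharyngeal mesoderm genes, which mark progenitors beside the heart, were at 127 CPM in WT replicate 1 and between 166 and 178 CPM in the other 5 libraries. Of the 11, 7 had a log2 fold change above 0 with a median of 0.12, and 10 were lowest in WT replicate 1, but only 3 were highest in mutant replicate 3. Smooth muscle genes (6 of 6 above 0, median 0.31) were at 94.0 CPM in WT replicate 1 and between 121 and 162 CPM elsewhere. Their *r* with the mean profile of the tested cardiac genes had a median of 0.834, from −0.02 (*Smtn*) to 0.977 (*Acta2*). Of 14 skeletal muscle genes only 5 passed the filter, with 3 above 0 and a median of 0.24. *Acta1* ran from 1.79 CPM in WT replicate 1 to 4.98 CPM in mutant replicate 3, with an *r* of 0.983 with that profile. *Myf5* had an *r* of −0.29 with it and a log2 fold change of −0.84 (edgeR, standard error 0.42, adjusted *P* = 0.632). The log2 fold change of *Myh8* was −0.24.

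Endocardium and cushion genes differed 1.26-fold in their sum, from 638 CPM in WT replicate 1 to 805 CPM in WT replicate 3. Of these, 4 of 10 were above 0, with a median log2 fold change of −0.02. *Vcan* made up 35.8% to 47.1% of the sum, which without it was 337 CPM in WT replicate 1 and between 414 and 460 CPM elsewhere. In this list 7 of 10 genes were lowest in WT replicate 1 and 0 were highest in mutant replicate 3. Proepicardium and septum transversum genes (2 of 4 tested above 0, median 0.11) were lowest in WT replicate 3, at 10.5 CPM, and highest in mutant replicate 1, at 18.0 CPM. Primitive erythroid genes (0 of 7 above 0, median −0.08) and liver bud and visceral endoderm genes (0 of 5 tested above 0, median −0.96) ran the other way from the cardiac genes in WT replicate 1. *Afp*, the α-fetoprotein gene, was at 5.55 CPM there and between 0.0903 and 0.710 CPM in the other libraries. Of 16 *Hox* genes of paralog groups 4 to 9, which are used behind the head, 1 (*Hoxb4*) passed the filter, with a log2 fold change of −0.18. The sum of the 16 was 5.14 CPM in WT replicate 2 and between 0.659 and 1.21 CPM elsewhere, so it did not track the cardiac genes.

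Somite genes (3 of 8 tested above 0, median −0.11) were between 37.1 and 48.2 CPM, of which *Pax3*, used also in the neural tube and neural crest, made up 66.4% to 88.1%. Without *Pax3* the sum was 5.30, 16.2 and 9.87 CPM in WT and 7.93, 8.04 and 10.9 CPM in mutants, so it too was lowest in WT replicate 1. Of the 8 tested, 3 were lowest in that library, *Meox1*, *Tcf15* and *Pax1*, while *Pax3* was highest there, at 39.3 CPM. *Meox1* and *Tcf15* were highest in WT replicate 2, at 9.78 and 1.55 CPM, and *Meox1* made up most of the sum without *Pax3* in that library. Head neural markers had 2 of 11 above 0 and a median of −0.10, and 9 of the 11 were highest in WT replicate 1. The share of all tested genes that were highest in that library was not counted. *En2*, a gene of the midbrain and hindbrain, was at 48.4 CPM in WT replicate 1 and between 25.9 and 34.7 CPM in the others. Neural crest markers had 6 of 10 above 0 and a median of 0.02. None of the genes in these lists of other tissues passed the threshold with edgeR or DESeq2. At an unadjusted *P* under 0.05 (edgeR) there were 3, where 8.43% of all tested genes were. These were *Tnnt1* (of 5 skeletal muscle genes tested) and *Msc* (of 11 second heart field genes), higher in mutants, and *Meox2* (of 8 somite genes), lower. The other lists of these tissues had 0. The part of these other tissues in the levels of the cardiac genes was not tested.

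**Figure D4:**
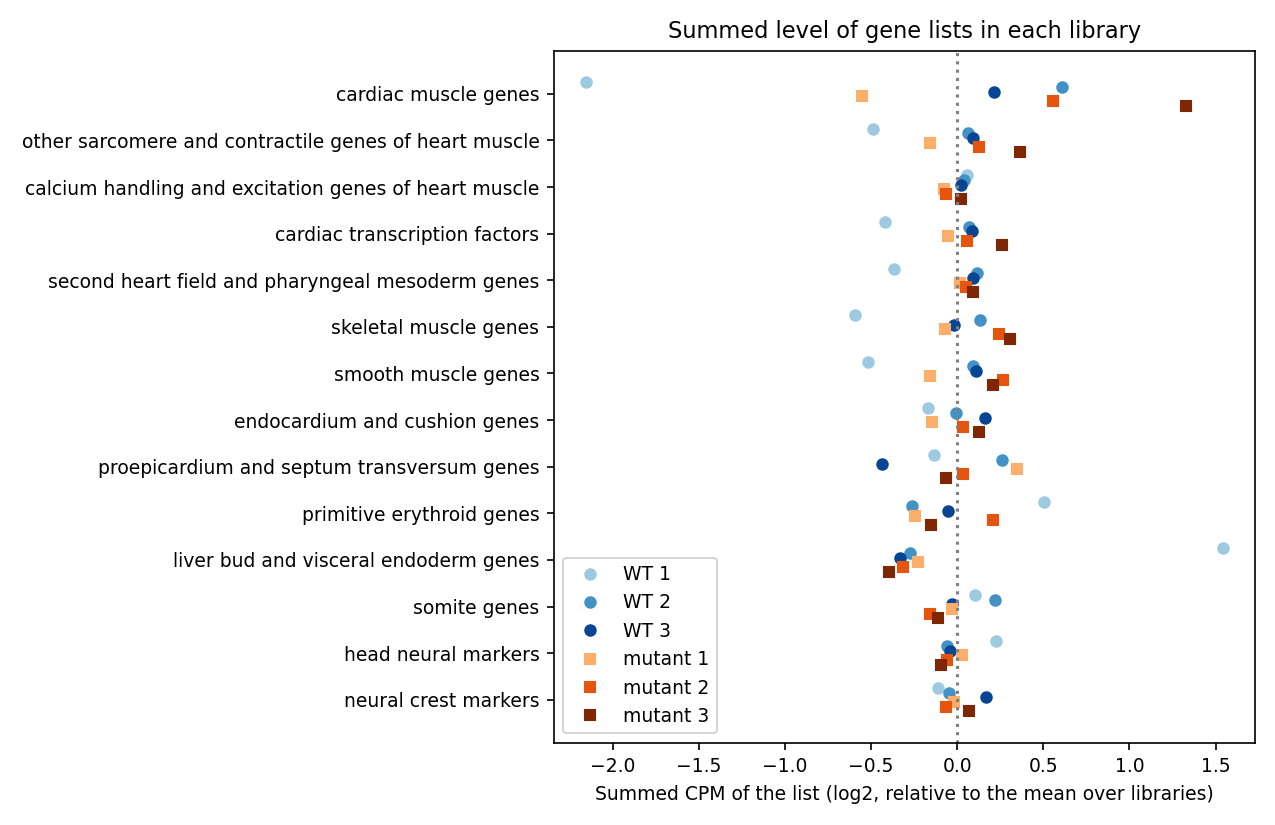
Summed CPM of each gene list apart from the *Hox* list in the 6 libraries, on a log2 scale relative to the mean of the libraries. Circles are WT and squares are mutants. An abundant member such as *Tpm1*, *Atp2a2* or *Pax3* can make up most of a sum. The sum of the *Hox* list, not shown, differed 7.80-fold between its highest and lowest library, against 11.2-fold for the cardiac muscle genes. The cardiac muscle genes spread more than any other list shown, with WT 1 lowest and mutant 3 highest, and the liver bud and visceral endoderm genes stand out in WT 1 alone.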

How the data were processed

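RNA of pooled E9.0 mouse heads (3 WT and 3 mutant libraries) was depleted of ribosomal RNA and sequenced by the authors. The deposited values are raw counts per gene symbol, which the authors made from reads trimmed and mapped to mm10 with STAR. The counter is HTSeq in the methods and featureCounts in the submitters' processing notes, and its strand setting is not given in the sources used here, so reads of antisense genes may be included. Libraries held 36378803 to 74909774 counts, genotype in the labels set the groups, and 0 columns were left unused.

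The test was that of edgeR (4.0.16, in R 4.3.3), with TMM scaling, filterByExpr by genotype, the robust quasi-likelihood test of mutant against WT, two-sided, and a Benjamini-Hochberg adjusted *P* of 0.05 over all tested genes. CPM are TMM-scaled, and log2 CPM use a prior count of 2. *P*-values weigh the difference between genotypes against the spread between these pools. Standard errors were computed from edgeR's log2 fold change and F statistic, and intervals from these with a t quantile. Lengths and coordinates come from Gencode M21, a later annotation of mm10 than the authors', and intervals are at 95%. Figures were drawn with matplotlib (version 3.10.9, Python version 3.11.15).

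The 9 members and all lists were chosen with earlier results of these data known. From each other list the 2 tested genes with the highest and the 2 with the lowest log2 fold change could be named, and the 10 genes most like the members. *Des*, *Atp2a2*, *Pax3*, *Meox1*, *Pax1*, *Acta2* and *Vcan* were named after their values were seen. Alternatives were DESeq2 (version 1.42.0), its size factors, library size alone, no filter, a minimum of 10 counts in each library, a replicate block, each library left out in turn, a prior count of 0.5, and the sum without *Myh7*. The spread without each library and list sums without their most abundant gene were added after the data were seen. The scripts were tested on simulated data.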

Additional observations from a re-analysis of the deposited data

How the results depend on the processing

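The number of cardiac muscle genes past the threshold was 0 under every alternative run, and their median log2 fold change stayed above 0, from 0.23 to 1.32 with each library left out in turn. Over all tested genes, 84 were called with DESeq2, 11 without a filter and 0 to 6 with a library left out, against 1 in the main analysis. The ratio of the highest to the lowest summed level, 11.2, was 3.68 to 11.2 with a library left out, at 3.68 without WT replicate 1 and 6.79 without mutant replicate 3. The log2 fold change of *Myh7* ran from −0.035 without mutant replicate 3, the highest library, to 0.90 without WT replicate 2. The median SD within genotype of the 8 tested genes, 1.31 on the log2 scale, was 0.80 without WT replicate 1 and reached 1.51 without mutant replicate 2. The deviations of same-numbered libraries from their group means correlated at 0.17, 0.03 and 0.36, and those of differently numbered libraries at −0.25 to 0.09. With 3 libraries a group these values cannot settle whether the numbers mark pairs, and the main fit took none. With the replicate block, 1 gene and 0 cardiac genes were called and the cardiac median was 0.85. With at least 10 counts in every library *Tnni1* was not tested, and *Nppa* entered only the fit without a filter (adjusted *P* = 0.805, edgeR) and that of DESeq2, which gave it no adjusted *P*. Depth limits *Nppa* and *Tnni1* in WT replicate 1, and the number of libraries limits the rest.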
